A study of Mus musculus with 1505 samples.

Results

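The collagen genes are the 44 rows of the exonic count table whose symbol is Col, a number, the letter a and a number, out of 42381 gene rows. Each encodes 1 chain of a protein in which 3 chains wind into a triple helix, and a collagen is named by a type number and each of its chains by a further number. Collagens are best known from the matrix outside cells. The fibril-forming types give connective tissue its strength, type IV builds the sheets of basement membranes such as those around brain vessels, type VI forms beaded filaments, the fibril-associated types decorate fibrils, and a transmembrane group is anchored in the cell surface and can be shed from it. In the adult brain, vessels and meninges are the textbook sources, while type XIX collagen and the transmembrane collagen of Col25a1 are known from neurons.

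Patch-seq was used on neurons of the primary motor cortex of mice, in which a cell is recorded through a glass pipette in a brain slice and its contents are then drawn into the pipette for Smart-seq2 sequencing. The 1320 cells recorded at 25 °C came from adult mice of both sexes, either wild-type C57Bl/6 or carrying a Cre driver (Viaat, Sst, Vip, Pvalb, Npy, Vipr2, Slc17a8 and others) with the Ai9 reporter, which labels the cells to be patched. The labels give neither the mouse nor its line for a cell. They give a transcriptomic type (t-type) for 1228 of these cells, 815 inhibitory and 413 excitatory, and 78 t-types fall into 10 families. The 5 inhibitory families are Pvalb (286 cells), Sst (272), Vip (152), Lamp5 (92) and Sncg (13). The excitatory families are the intratelencephalic cells (IT, 253), the extratelencephalic cells (ET, 48, whose t-types the labels call L5 PT), the corticothalamic cells (CT, 83), the cells of L6b (24) and the near-projecting cells (NP, 5). A second set of 185 cells was recorded at 34 °C with kynurenic acid and picrotoxin, blockers of fast synaptic transmission, mostly in mice with the Sst driver. The authors assigned t-types from the same RNA, so a level by t-type is not independent of that assignment.

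A cell with a t-type had between 2588 and 18172944 exonic counts, with a median of 1267852. These cells were recorded on 238 days, 491 of them in earlier years and 737 in the final year. Levels are exonic counts added up over all cells of a group and scaled to the same total (CPM), which weights deeply sequenced cells more. As the labels name no animal, every group was treated as 1 sample. No test was therefore possible, and brackets hold the exact 95% Poisson interval of the sum, which covers counting error only; the spread between cells is given by the lowest, median and highest cell. Family markers were highest in their own families, with Sst at 2189 CPM in Sst cells, Vip at 10042 CPM in Vip cells, Pvalb at 373 CPM in Pvalb cells and Lamp5 at 967 CPM in Lamp5 cells. Markers of other cells were also present in every family: the summed level ranged from 280 to 964 CPM for 8 microglial genes, from 217 to 1904 CPM for 6 oligodendrocyte genes and from 50.5 to 557 CPM for 6 astrocyte genes. It reached 26 CPM for 5 endothelial genes (lowest 0.872), 19.4 CPM for 5 mural cell genes (lowest 0) and 3.30 CPM for 6 genes of fibroblasts and meninges (lowest 0). The part of other cells in the collagen levels was not tested. The split by vessel reads given for type IV collagen cannot decide it. A read of any marker placed a cell there, and the 2 groups differed in depth.

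What the genes share is the repeat that they encode. A glycine in each repeat of 3 residues lets the chains pack, so that GGN codons for glycine recur every 9 bases. In the GENCODE M21 annotation of GRCm38, the coding sequences of all 44 genes held at least 1 run of 5 or more such triplets. Of 1098 exons lying inside these runs, 1060 (96.5%) had a length that is a multiple of 9, and 453 were exactly 54 bases long. The exons below show this unit in the genes that led the neuronal levels. Each is a whole exon inside a run, 5′ to 3′ on the gene's own strand. Capitals mark the glycine codon that opens each triplet, and other glycine codons are in lower case.
Col19a1, exon 41 of 51, chr1:24296760-24296813, minus strand: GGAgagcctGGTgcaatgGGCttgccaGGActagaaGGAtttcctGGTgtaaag
Col25a1, exon 32 of 38, chr3:130577302-130577355, plus strand: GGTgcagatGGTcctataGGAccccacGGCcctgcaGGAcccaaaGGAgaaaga
Col11a1, exon 15 of 67, chr3:114108281-114108334, plus strand: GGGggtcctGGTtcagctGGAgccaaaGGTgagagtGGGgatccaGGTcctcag
Col6a1, exon 9 of 35, chr10:76719623-76719676, minus strand: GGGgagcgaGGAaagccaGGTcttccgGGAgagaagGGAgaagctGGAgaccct
Col12a1, exon 57 of 66, chr9:79612916-79612969, minus strand: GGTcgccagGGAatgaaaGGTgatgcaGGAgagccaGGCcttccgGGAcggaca

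All 5 exons carry 6 triplets. The genes differed in how long the repeat runs on. The longest run was 338 triplets in Col11a1, a fibril-forming chain, but 87 in Col6a1, 57 in Col19a1, 40 in Col25a1 and 32 in Col12a1, in which the helix is short or interrupted. Col19a1 held 11 runs with 223 triplets in all, which made up 58.9% of its 1136 codons.

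Most collagen genes could be read in neurons, yet any one neuron held few of them. At least 5 CPM in 1 or more families was reached by 30 of the 44 genes, against 37.5% of all gene rows. A cell with a t-type had reads of a median of 5 collagen genes, with a range of 0 to 26. The summed level of the 44 genes was highest in Sncg cells (2888 CPM), followed by Sst (1347), CT (1332), L6b (1067), NP (983), Pvalb (920), ET (873), IT (680), Vip (527) and Lamp5 cells (431). The abundant chains of connective tissue were close to absent: across families, Col1a1 reached at most 1.76 CPM, Col1a2 3.68 CPM and Col3a1 0.607 CPM. A further 11 genes stayed below 5 CPM in every family, namely Col2a1, Col4a3, Col4a5, Col4a6, Col5a3, Col6a6, Col8a2, Col9a3, Col10a1, Col13a1 and Col28a1.

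**Figure D1:**
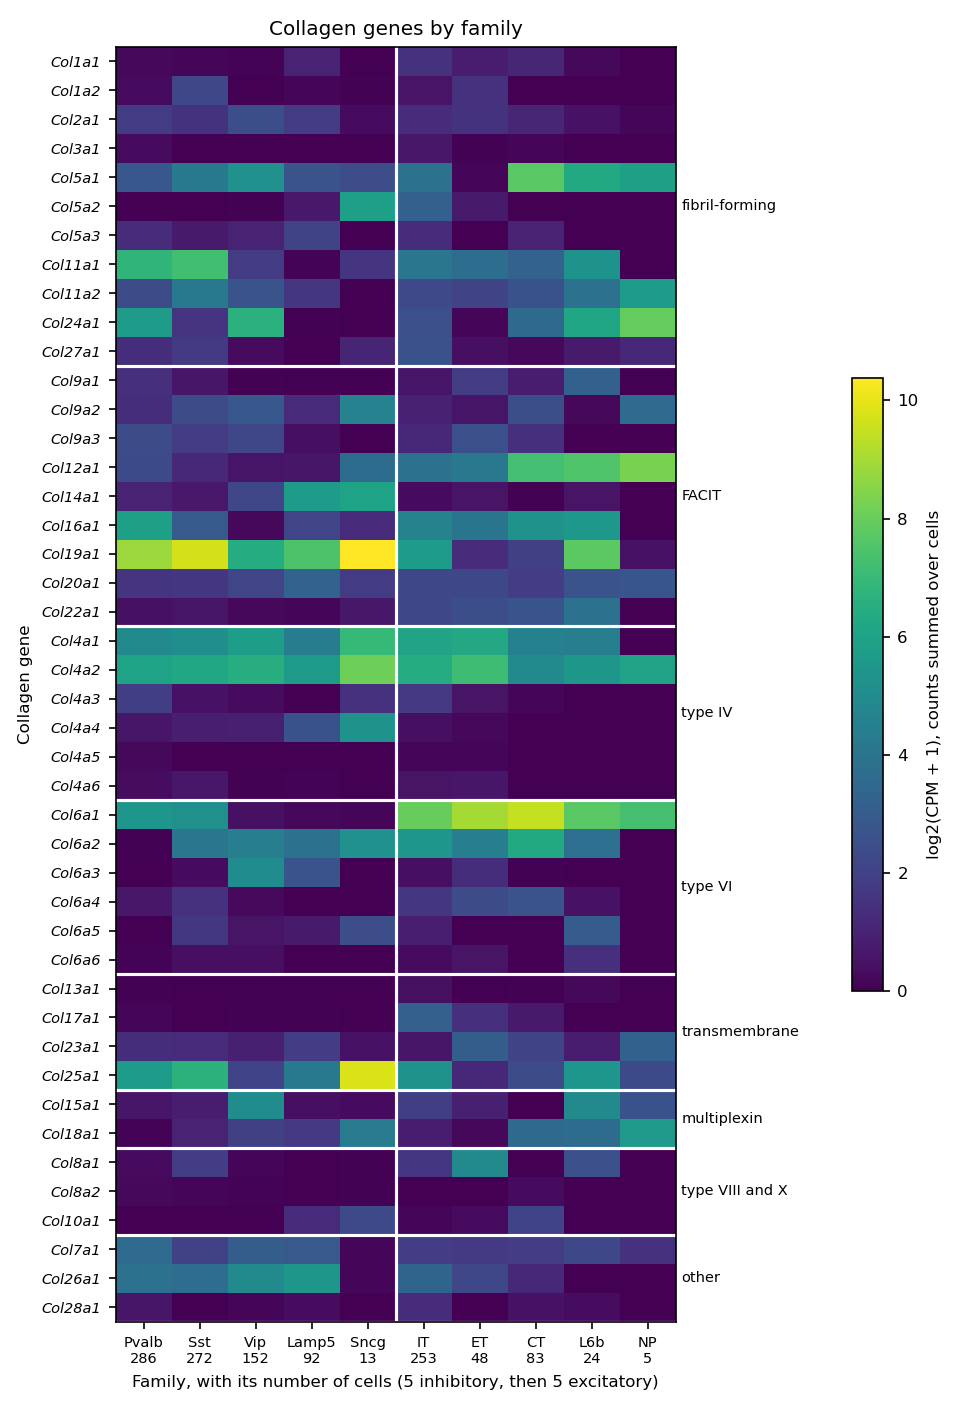
Level of the 44 collagen genes, as log2(CPM + 1) of summed exonic counts at 25 °C, by family (columns) and by collagen class (rows). Col19a1 is highest in Sncg (1338 CPM) and Sst cells (846 CPM), and Col6a1 in CT (718 CPM) and ET cells (507 CPM).

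Which gene led depended on the family. Divided by exonic length, so that genes can be compared, Col19a1 led in Pvalb (64.9 CPM per kb), Sst (123), Lamp5 (26.1) and Sncg cells (194). Col6a1 led in IT (57.7 CPM per kb), ET (116), CT (164), L6b (48) and NP cells (36.8). Vip cells had no such leader, with Col4a2 at 13.4, Col24a1 at 12.8 and Col19a1 at 12.5 CPM per kb. The lead of Col6a1 in L6b and NP cells rested on few cells, with a read in 3 of 24 and 1 of 5. Without division by length, Col19a1 came first in L6b cells (219 CPM, Col6a1 210 CPM) and Col12a1 in NP cells (316 CPM, Col6a1 161 CPM).

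Col19a1 encodes a fibril-associated chain that is known to act at developing synapses. Its summed level was 1338 CPM [1323 to 1354] in Sncg cells, 846 CPM [844 to 849] in Sst cells and 447 CPM [445 to 449] in Pvalb cells. All 13 Sncg cells had reads, from 42.1 to 3208 CPM with a median of 652 CPM. The cell median was 552 CPM in Sst cells (highest 5074 CPM) and 341 CPM in Pvalb cells (highest 2703 CPM), and both families also held cells without a read, so that the distributions of these 3 families overlapped widely. Lower levels were found in L6b (219 CPM), Lamp5 (180), Vip (86.2) and IT cells (53.2), and traces in CT (2.90), ET (1.5) and NP cells (0.440). In the 1157 cells with at least 200000 counts, each thinned to that number, a read of Col19a1 remained in 79.1% of Pvalb cells (exact binomial 95% interval 73.8 to 83.8) and in 76.8% of Sst cells (70.9 to 82), but in 27.5% of Vip cells (20.5 to 35.4), 13.6% of ET cells (5.17 to 27.4) and 6.10% of CT cells (2.01 to 13.7). Over all cells and without thinning, the shares were 82.5, 79, 41.4, 14.6 and 16.9%.

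Col25a1, a transmembrane collagen that takes part in the innervation of muscle, was concentrated in the smallest inhibitory family. Sncg cells had 884 CPM [872 to 897], with 13 of 13 cells above 0, a lowest cell of 1.39 CPM, a median of 584 CPM and a highest of 2166 CPM. The other cells together had 45.8 CPM, and on each of the 13 days on which both were recorded the Sncg cells were the higher. Sst cells followed with 102 CPM, Pvalb cells with 51.6 CPM and IT cells with 37.7 CPM, but their cell medians were 0, 0 and 0.695 CPM.

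Col11a1, a chain that joins fibrils of types V and XI, was next in the Sst (149 CPM [148 to 150]) and Pvalb families (109 CPM [108 to 110]). The median cell had 0 CPM in the former and 26.6 CPM in the latter, and the highest cells reached 1572 and 1390 CPM. In Vip, Lamp5, Sncg and NP cells the summed level was at most 2.59 CPM. The related chain Col11a2 was lower, at 17.1 CPM in Sst cells.

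Type VI collagen was the leading class in IT, ET and CT cells (summed 299, 533 and 802 CPM), mostly through a single chain. In L6b cells the fibril-associated class was higher (478 against 233 CPM), and in NP cells the fibril-forming class (359 against 161 CPM). Col6a1 stood at 718 CPM [714 to 723] in CT, 507 CPM [503 to 511] in ET and 253 CPM [251 to 254] in IT cells. The median cell had 186 CPM in CT, 270 CPM in ET and 0 CPM in IT cells, with highest cells of 5814, 1993 and 3059 CPM, and 44 of 83, 29 of 48 and 63 of 253 cells had a read. Cells without a read thus stood beside cells with high levels within each of these families. In IT cells the level was 71.7 CPM in the earlier years (165 cells) and 487 CPM in the final year (88 cells). The t-types of IT cells differed in this gene, as given below, and their numbers in each period were not compared. The 161 CPM of NP cells came from 1 cell of 5, and 69.4% of the reads in L6b cells (210 CPM) from 1 cell of 24. The partner chain Col6a2 was highest in CT cells (78.2 CPM), and Col6a3, the chain with the longest extension beyond the helix, in Vip cells (32.2 CPM).

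**Figure D2:**
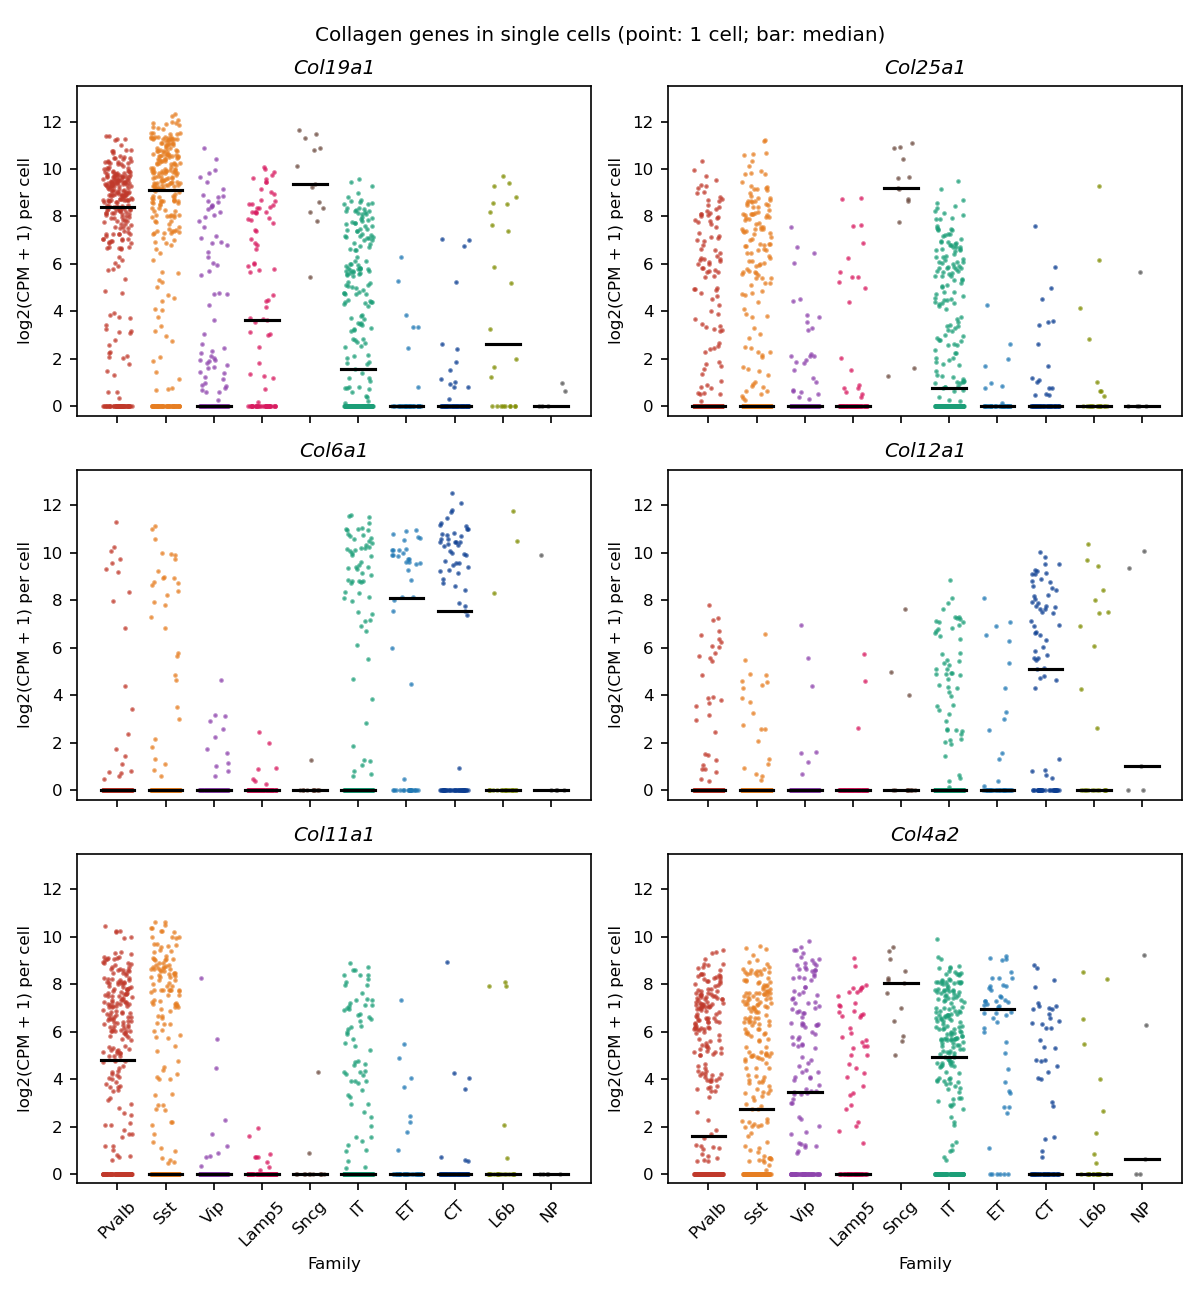
Levels in single cells at 25 °C for 6 collagen genes, as log2(CPM + 1), by family; each point is 1 cell and the bar is the median of the family. The median of Col19a1 is 552 CPM in Sst and 341 CPM in Pvalb cells, whereas the medians of Col6a1 are above 0 only in CT (186 CPM) and ET cells (270 CPM).

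Other classes had their own leading families. Among the fibril-forming chains, Col5a1, which controls how fibrils start and how thick they grow, reached 211 CPM [209 to 214] in CT cells, of which 42 of 83 had a read. Col24a1 reached 97.3 CPM [96 to 98.7] in Vip cells and 52.1 CPM in Pvalb cells; its 245 CPM in NP cells rested on 2 cells. Among the fibril-associated chains, Col12a1 was highest in the deep excitatory families, with 316 CPM in NP cells (3 of 5 cells, 71.8% of the reads from 1), 186 CPM in L6b and 154 CPM [152 to 157] in CT cells. Its cell median in CT cells was 33.7 CPM and the highest cell had 1050 CPM. L6b cells were not higher in Col12a1 on more shared recording days than they were lower, as given below. Col16a1 was highest in Pvalb cells (58.8 CPM) and Col14a1 in Sncg (63.3 CPM, 2 cells of 13) and Lamp5 cells (51.9 CPM, 27 cells of 92). Col20a1 did not exceed 8.63 CPM (Lamp5), Col9a2 23.4 CPM (Sncg) and Col9a3 4.79 CPM (ET).

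The multiplexins Col15a1 and Col18a1, basement membrane chains from which endostatin and a related fragment can be cut, were low in most families. Col15a1 had 32.1 CPM in Vip and 29.2 CPM in L6b cells. Col18a1 had its highest level in NP cells (47.5 CPM), all of it from 1 cell. Col8a1, a short chain of vessel networks, had 30.8 CPM in ET cells, 70.3% of it from 1 cell. Col26a1, which is not assigned to a class here, had 43.9 CPM in Lamp5 and 30.1 CPM in Vip cells. Col5a2 had 56.6 CPM in Sncg cells, 70.9% of it from 1 cell, and 8.19 CPM in IT cells. The remaining 8 genes that reached 5 CPM in a family were Col6a4, Col6a5, Col7a1, Col9a1, Col17a1, Col22a1, Col23a1 and Col27a1, with highest levels between 5.22 CPM (Col27a1, IT) and 13.52 CPM (Col22a1, L6b).

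Type IV collagen was the most evenly spread class. Col4a2 was read in 727 of 1228 cells and Col4a1 in 587. The level of Col4a2 was 271 CPM [264 to 278] in Sncg cells, 141 CPM in ET, 88.6 CPM in Vip, 86.5 CPM in IT and 70.9 CPM in Sst cells, and its lowest level was 30.02 CPM in CT cells. Col4a1 followed the same chief families with 122 CPM in Sncg and 76.5 CPM in ET cells. As vessels are rich in this collagen, cells were split by reads of endothelial, mural, fibroblast or meningeal markers. Col4a2 had 76.1 CPM in the 942 cells with such a read and 73.8 CPM in the 286 cells without, and Col4a1 had 44.5 and 36.7 CPM. Median depths were 1366156 and 884382 counts. Of the markers used for the split, Itm2a had the highest level, with 12.5 CPM in inhibitory and 17 CPM in excitatory cells. Cldn5 had 0.0275 and 0.798 CPM. Which marker placed a cell was not tested. The same split gave 169 and 84.6 CPM for Col6a1, and 354 and 295 CPM for Col19a1. Col4a4, a chain of the kidney filter, had 37.8 CPM in Sncg cells from 2 cells, while Col4a3, Col4a5 and Col4a6 did not exceed 2.81 CPM.

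The study grouped neurons first by whether they inhibit or excite, and the collagen genes were set against that division. A gene was compared where its higher group reached 5 CPM, and a difference was counted when it was at least 2-fold after adding 1 CPM to both levels. A gene that passes this filter through its high group alone is prone to differ, so such counts describe the genes that passed and are no support for a difference. Among 19 collagen genes that passed, 14 differed at least 2-fold, against 17.8% of all genes that passed. The median size of the difference was 1.81 on the log2 scale for these genes and 0.39 for all genes. Higher in inhibitory cells were Col19a1 (515 against 43.1 CPM, log2 3.55), Col14a1 (7.97 against 0.248, 2.85), Col11a1 (92.4 against 14.9, 2.55), Col6a3 (5.70 against 0.468, 2.19), Col24a1 (35 against 11.7, 1.51), Col26a1 (18.9 against 6.10, 1.48), Col25a1 (71.2 against 24.9, 1.48) and Col7a1 (7.10 against 2.69, 1.13). Lower were Col12a1 (2.25 against 54.9 CPM, log2 -4.10), Col6a1 (28.7 against 382, -3.69), Col17a1 (0.0535 against 5.01, -2.51), Col8a1 (1.04 against 6.70, -1.92), Col6a2 (10.9 against 43.4, -1.91) and Col5a1 (14.6 against 53.4, -1.81). Col4a1 and Col4a2 passed the filter and did not differ by 2-fold. Some of these sums combined unlike families. Col24a1 had 97.3 CPM in Vip and 52.1 CPM in Pvalb cells, but at most 1.95 CPM in Sst, Lamp5 and Sncg cells. It had 68.6 CPM in L6b and 4.79 CPM in IT cells. Col25a1 had 884 CPM in Sncg, 102 CPM in Sst and 51.6 CPM in Pvalb cells. Its 17.6 CPM in Lamp5 and 3.25 CPM in Vip cells were below the 37.7 CPM of IT cells. Within the cells of the earlier years the difference fell under 2-fold for Col5a1 (log2 -0.46), Col6a3 (0.44) and Col26a1 (0.63), and within those of the final year for Col24a1 (0.62) and Col25a1 (0.74). Col14a1 did not reach the filter in the earlier years (log2 1.24), nor Col8a1 in the final year (-1.28). Col8a1 also fell under 2-fold in the mean over recording days (log2 -0.59), with 5 CPM added (-0.95) and without the cell with the most reads (-0.99). Col6a3 fell under 2-fold with 5 CPM added (0.97) and did not reach the filter without the cell with the most reads (1.97). The earlier years held few cells of the families highest in Col5a1 (1 CT cell) and Col6a3 (6 Vip cells).

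Each family was also set against all other cells. The collagen genes that differed at least 2-fold numbered 10 of 16 in Pvalb cells (all genes 15.9%), 10 of 16 in Sst (12.8%), 10 of 18 in Vip (16.9%), 14 of 19 in Lamp5 (20.5%), 17 of 19 in Sncg (36.2%), 9 of 19 in IT (16%), 10 of 17 in ET (26.5%), 15 of 19 in CT (27.2%), 11 of 21 in L6b (32%) and 16 of 20 in NP cells (69.4%). The high percentages over all genes belong to the families with few cells, and these comparisons share their cells. Pvalb cells were higher in Col16a1 (log2 1.93), Col24a1 (1.43), Col7a1 (1.38) and Col11a1 (1.08). Of 93 shared recording days, Col24a1 was higher in Pvalb cells on 39 and lower on 14, and Col11a1 on 51 and 30. Col16a1 was higher on 36 and lower on 25, and Col7a1 higher on 27 and lower on 28. Sst cells were higher in Col19a1 (log2 2.07), Col11a1 (1.86), Col11a2 (1.71) and Col25a1 (1.29). Col19a1 was higher in Sst than in other cells on 51 of 63 shared recording days and lower on 11. Vip cells were higher in Col6a3 (log2 4.29), Col15a1 (3.6), Col24a1 (2.31) and Col26a1 (1.2), and lower in Col19a1 (-2.10). Lamp5 cells were higher in Col14a1 (log2 4.36), Col26a1 (1.79), Col4a4 (1.66) and Col20a1 (1.33), and 10 genes were lower.

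Among excitatory cells, CT cells were higher in Col5a1 (log2 3.73; on 27 of 40 shared days, lower on 2), Col12a1 (3.66; on 30 days, lower on 5), Col6a1 (2.65; on 20 days, lower on 17), Col18a1 (2.15), Col6a2 (2.03), Col6a4 (1.44) and Col22a1 (1.28). L6b cells were higher in Col12a1 (log2 3.31), Col15a1 (2.52), Col22a1 (2.42), Col9a1 (2.33), Col6a5 (2.17), Col18a1 (2.07), Col5a1 (1.45) and Col24a1 (1.38). ET cells were higher in Col8a1 (log2 3.81), Col6a1 (1.92; on 19 of 26 shared days, lower on 2) and Col23a1 (1.78), and lower in Col19a1 (-7.20) and Col25a1 (-4.73). IT cells were higher in Col17a1 (log2 2.87), Col5a2 (2.30), Col27a1 (1.47) and Col6a2 (1.23), and lower in Col19a1 (-2.96). In Sncg cells Col4a4 (log2 4.38), Col5a2 (4.36), Col25a1 (4.24), Col14a1 (3.53), Col9a2 (2.73), Col18a1 (2.68), Col19a1 (2.0), Col4a2 (1.86) and Col4a1 (1.51) were the higher genes. In NP cells they were Col18a1 (log2 4.0), Col12a1 (3.93), Col24a1 (3.21), Col11a2 (2.72), Col23a1 (1.75), Col9a2 (1.69) and Col5a1 (1.04). Without the cell with the most reads, a choice made after seeing the data, the value in NP cells was 0.44 for Col11a2 and -1.60 for Col18a1. Within the cells of the final year, the value was 0.80 for Col8a1 in ET cells and -1.09 for Col5a2 in Sncg cells. Of the 54 differences in which a family was higher, 36 were higher on more shared days than they were lower, and 18 were not. The latter were Col7a1 in Pvalb, Col4a4 and Col20a1 in Lamp5, Col4a4, Col9a2, Col14a1 and Col18a1 in Sncg, Col23a1 in ET, Col22a1 in CT, Col5a1 and Col9a2 in NP cells, and all those of L6b cells other than Col6a5. Nearly all Vip, Lamp5, CT, L6b and NP cells were recorded in the final year (6, 8, 1, 1 and 0 earlier cells), while 43 of the 48 ET cells were earlier. Family and recording period cannot be told apart there.

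Below the level of families, 53 t-types had 5 or more cells. Each was set against the other cells of its family, with a filter of 20 CPM and a difference of at least 4-fold, since sums over few cells vary more. Of 458 pairs of collagen gene and t-type that passed, 223 differed (83 higher, 140 lower), against 12% of 474856 pairs over all genes. Each of the 53 t-types had at least 1 such pair, and 29 collagen genes were involved. Lamp5 Pax6, a t-type of 5 cells, had the most higher genes with 9.

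**Figure D3:**
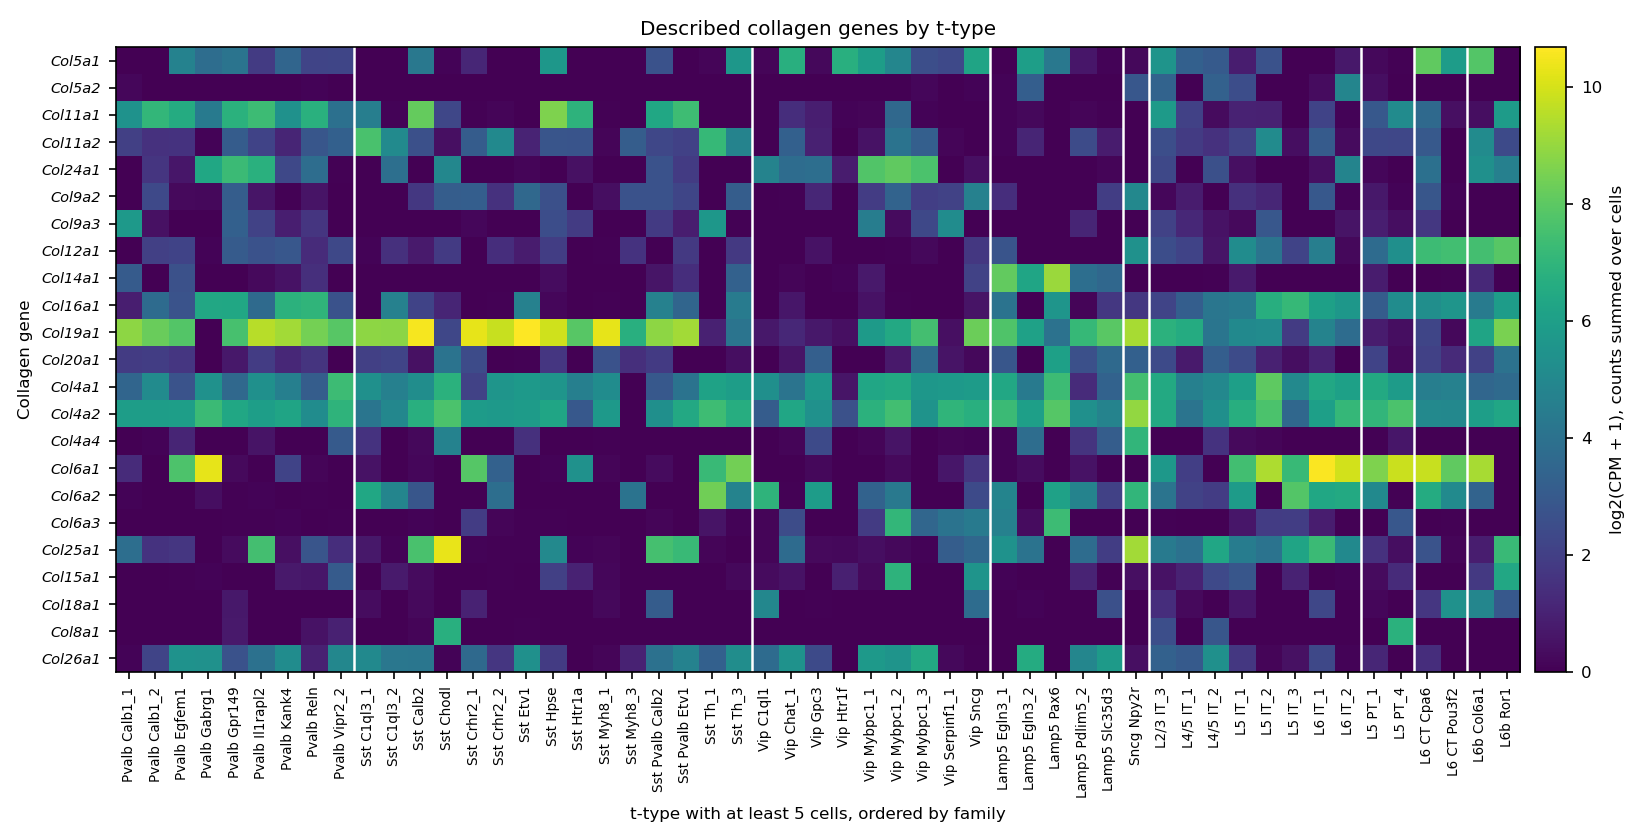
Levels of the 23 collagen genes described in full as log2(CPM + 1) of summed exonic counts at 25 °C, by t-type with at least 5 cells. Col25a1 stands out in Sst Chodl (1283 CPM), Col6a1 in L6 IT_1 (1574 CPM) and Pvalb Gabrg1 (1236 CPM), and Col14a1 in Lamp5 Pax6 (538 CPM).

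In Sst cells Col19a1 and Col25a1 divided the t-types. Col19a1 stood at 1639 CPM in Sst Etv1, 1485 CPM in Sst Calb2, 1249 CPM in Sst Crhr2_1 and 1233 CPM in Sst Myh8_1. It was low in Sst Chodl (3.80 CPM, 4 of 12 cells), Sst Th_3 (16.3 CPM) and Sst Th_1 (0.947 CPM). Sst Chodl, a sparse t-type known for long-range axons, had instead the highest Col25a1 of all t-types, at 1283 CPM with 11 of 12 cells above 0, a median of 1197 CPM and a highest cell of 2420 CPM, against 70.6 CPM in the rest of the family. Col25a1 was also present in Sst Calb2 (193 CPM), Sst Pvalb Calb2 (186 CPM) and Sst Pvalb Etv1 (151 CPM), and at 0.118 CPM or less in Sst Crhr2_1, Sst Crhr2_2, Sst Etv1, Sst Htr1a, Sst Myh8_1, Sst Myh8_3, Sst C1ql3_2, Sst Th_1 and Sst Th_3. Col11a1 was highest in Sst Hpse (393 CPM, 38 of 50 cells) and Sst Calb2 (285 CPM, 44 of 61 cells). Sst Th_1 had 328 CPM of Col6a2, in 4 of 7 cells.

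In Pvalb cells, Col25a1 was almost limited to Pvalb Il1rapl2, with 177 CPM in 65 of 88 cells with a read against 3.26 CPM in the rest of the family. That t-type also had the highest Col19a1 of the family (745 CPM, 86 of 88 cells, median 652 CPM). At the other end, Pvalb Gabrg1 had no read of Col19a1 in 7 cells (0 CPM [0 to 0.287]). These 7 cells had 1236 CPM of Col6a1 instead (5 of 7 cells, median 845 CPM, highest 2503 CPM), against 9.54 CPM in the rest of the family. Col16a1 was highest in Pvalb Reln (125 CPM) and Col24a1 in Pvalb Gpr149 (156 CPM, 20 of 30 cells).

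In Vip cells, Col24a1 was highest in the Mybpc1 t-types. Col24a1 had 264 CPM in Vip Mybpc1_2 (24 of 33 cells, median 104 CPM), 222 CPM in Vip Mybpc1_1 and 198 CPM in Vip Mybpc1_3. Vip Mybpc1_2 alone of these also had 120 CPM of Col15a1 (21 of 33 cells) and 135 CPM of Col6a3 (15 of 33 cells). In Vip Mybpc1_1 and Vip Mybpc1_3, Col15a1 had 0.213 and 0 CPM, and Col6a3 2.66 and 10.4 CPM. Col19a1 was highest in Vip Sncg (307 CPM, 14 of 20 cells) and at 1.31 CPM or less in Vip C1ql1, Vip Chat_1, Vip Gpc3, Vip Htr1f and Vip Serpinf1_1. In the Lamp5 family Col14a1 was highest in Lamp5 Pax6 (538 CPM, 4 of 5 cells) and Lamp5 Egln3_1 (274 CPM, 8 of 9 cells, median 213 CPM). Sncg Col14a1, a t-type that carries the name of the gene, had 4 cells and was not summed. Lamp5 Pax6 also had 157 CPM of Col6a3 and 234 CPM of Col4a2.

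In excitatory cells, Col6a1 differed between t-types. It was highest in L6 IT_1 (1574 CPM), where all 10 cells had a read, from 271 to 3059 CPM with a median of 1322 CPM, and in L6 IT_2 (1001 CPM, 21 of 25 cells). It was 173 CPM in L5 IT_1, 50.7 CPM in L2/3 IT_3 (4 of 86 cells), 2.91 CPM in L4/5 IT_1 and 0.0177 CPM in L4/5 IT_2. L5 PT_4 had 905 CPM and L5 PT_1 387 CPM, and L6 CT Cpa6 had 887 CPM (38 of 65 cells) and L6 CT Pou3f2 269 CPM. L6b Col6a1, a t-type named for this gene, had 621 CPM, from 3 of its 10 cells, and no read was found in the other 14 cells of the family. Col19a1 in IT cells was highest in L2/3 IT_3 (115 CPM) and L4/5 IT_1 (93.2 CPM), lay between 12.5 and 34.7 CPM in L4/5 IT_2, L5 IT_1, L5 IT_2, L6 IT_1 and L6 IT_2, and was lowest in L5 IT_3 (2.65 CPM). Col5a1 had 267 CPM in L6 CT Cpa6 (35 of 65 cells) and 228 CPM in L6b Col6a1, and Col12a1 was alike in L6 CT Cpa6 (158 CPM) and L6 CT Pou3f2 (173 CPM). L5 PT_4 and Sst Chodl had the highest Col8a1 (113 and 105 CPM). Of all reads of Col8a1 in cells with a t-type, 43.1% came from 1 cell of L5 PT_4, a t-type of 9 cells.

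Several high values rested on 1 cell. All reads of Col9a3 in Pvalb Calb1_1 (52.7 CPM) came from 1 of 9 cells, and all reads of Col20a1 in Lamp5 Pax6 (65.8 CPM) from 1 of 5. Col16a1 in L5 IT_3 (141 CPM) and Col6a2 in L5 IT_3 (222 CPM) each came from 2 of 5 cells. When the cell with the most reads of a gene was left out of each group, a choice made after seeing the data, the pairs that differed fell from 223 to 169.

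A collagen molecule needs its chains in 1 cell, which raises the question of whether chains of 1 molecule were read together. The common type IV molecule holds 2 chains of Col4a1 and 1 of Col4a2, and these genes lie head to head. In the GENCODE M21 annotation of GRCm38 the 2 start sites overlap by 22 bases at chr8:11312805-11312826 (plus strand), a stretch in which both genes begin on opposite strands.
Col4a1 and Col4a2, shared start: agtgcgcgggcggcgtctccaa

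Over the 53 t-types the Pearson correlation of log2(CPM + 1) was 0.67, the highest among the chains compared and a description, since t-types share libraries and depth. Of 587 cells with Col4a1, 461 (78.5%) also had Col4a2, against 41.5% of the cells without Col4a1. The neighbouring head-to-head pair Col4a4 and Col4a3, with start sites 71 bases apart on chromosome 1, was read in both chains in 4 cells.

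The 3 chains of type VI collagen, which are assembled as 1 of each, were seldom all read in 1 cell. Col6a1 was read in 213 cells, Col6a2 in 165 and Col6a3 in 63, and only 7 of 1228 cells had all 3. Col6a1 and Col6a2, which lie 85161 bases apart on chromosome 10, were both read in 71 cells, 26 of them CT and 22 IT cells. Of the cells with Col6a1, 33.3% had Col6a2, against 9.26% of the cells without it. Of the cells with Col6a3, 26.98% had Col6a1, against 16.8% of the others. The correlations over t-types were 0.29 for Col6a1 with Col6a2, -0.09 for Col6a1 with Col6a3 and 0.09 for Col6a2 with Col6a3. In type I, Col1a2 was read in 7.04% of the cells with Col1a1 and in 3.63% of those without (5 cells with both, r = -0.10). In type IX, Col9a2 was read in 28.6% of the cells with Col9a3 and in 11.1% of those without, and r over t-types lay between -0.14 and -0.02. For the fibrils of types V and XI, r was 0.03 for Col5a1 with Col5a2, 0.04 for Col5a1 with Col11a1, 0.14 for Col11a1 with Col11a2 and -0.16 for Col5a2 with Col11a1. A chain without a read can still be present below the depth of a cell.

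**Figure D4:**
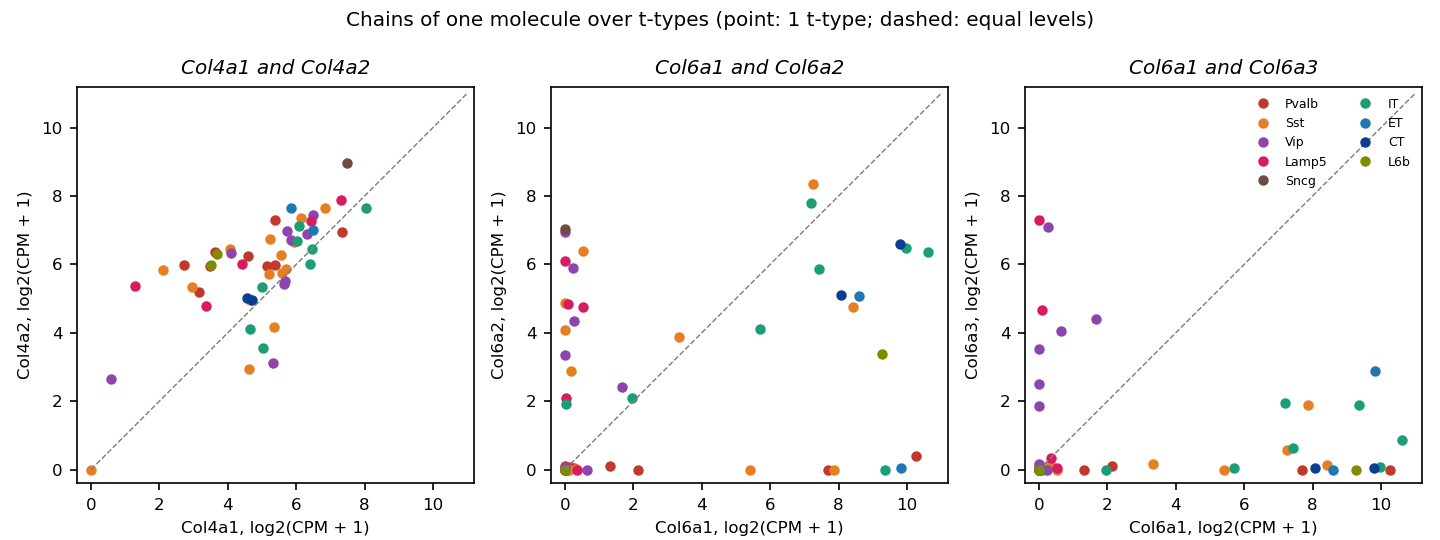
Levels of partner chains against each other as log2(CPM + 1), each point 1 of 53 t-types with at least 5 cells. Col4a1 and Col4a2 rise together (r = 0.67), whereas the points scatter for Col6a1 with Col6a2 (r = 0.29) and with Col6a3 (r = -0.09).

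Between all collagen genes described here, the best matched pairs that form no common molecule were Col12a1 with Col16a1 (r = 0.53) and Col6a1 with Col12a1 (r = 0.43). Col9a1 and Col19a1, which lie 9205 bases apart on chromosome 1, had r = 0.08. Among 15093 genes outside the collagens with at least 20 CPM in 1 t-type, those with the pattern closest to Col19a1 were Moxd1 (r = 0.63), Ppp1r3f (0.59) and Med25 (0.59). Col12a1 was closest to Fezf2, a transcription factor of deep-layer excitatory neurons (0.75), Myh3 (0.69) and Cnksr3 (0.68). Col6a1 was closest to Cwh43 (0.72), Serinc2 (0.67) and Epor (0.67), and Col25a1 to Kirrel3 (0.53), Bmp3 (0.53) and Kcnn3 (0.52). Col14a1 was closest to Fmo1 (0.78), Gm45623 (0.77) and Gm49257 (0.76), and Col11a1 to Slc25a3 (0.66), Hpn (0.64) and Slc38a2 (0.64). Col24a1 was closest to Sema5b (0.64), Col5a1 to Cebpd (0.60), Col4a2 to Fbf1 (0.70) and Col4a1 to Map3k7 (0.57). For the other 13 genes the best r lay between 0.57 and 0.76. The best of so many candidates is high by selection alone.

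Genes that make, process, bind or break down collagen were followed as 4 lists. Of the 17 genes that fold and modify the chains, 16 passed the filter between inhibitory and excitatory cells. Higher in inhibitory cells were Plod1 (log2 1.91) and P3h2 (1.79), hydroxylases of lysine and proline, Crtap (1.72), a part of a prolyl 3-hydroxylase complex, and P4ha2 (1.23), a prolyl 4-hydroxylase subunit. The subunits P4ha3 (-1.70) and P4ha1 (-1.14) were lower. The median of the list was 0.53, against 0.05 for all genes. Serpinh1, the chaperone of the collagen helix, did not exceed 0.953 CPM in any family, while P4hb, which serves many other proteins as well, had 166 CPM in inhibitory and 113 CPM in excitatory cells. Of 13 genes for processing and crosslinking, 4 passed, with Tll1 higher (1.10) and Bmp1 lower (-2.75), both proteases that trim collagen ends, and a median of 0.09. Of 10 receptors 6 passed, and only Ddr2, a kinase that binds collagen fibrils, differed at least 2-fold (log2 3.00), with 84.5 CPM in Lamp5 cells; the median was 0.24. The list of 15 genes for degradation holds both proteases and inhibitors of proteases, among them the Timp genes. Of these 15, 9 passed. Mmp15 (1.86), Timp3 (1.51) and Timp2 (1.02) were higher, and Ctsk (-2.64) and Mmp17 (-1.64) lower. The median of 0.55 covers proteases and inhibitors together. The share of all genes that differed in this comparison is the 17.8% given above.

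The cells recorded at 34 °C provided a second look at the levels of t-types. They comprised 185 cells of 8 recording days, 177 with a t-type, and 12 t-types had at least 5 cells at both temperatures. Temperature, blockers, year and animals differed together and cannot be told apart. Over the 12 t-types, the Pearson correlation of log2(CPM + 1) at both temperatures was 0.97 for Col19a1, 0.96 for Col25a1, 0.78 for Col12a1, 0.77 for Col6a1 and 0.19 for Col11a2. For their ranks, Spearman's rho was 0.86, 0.90, 0.44, 0.66 and 0.27. The t-type with the highest Col19a1 was Sst Calb2 at 25 °C (1485 CPM) and Sst Crhr2_1 at 34 °C. At 34 °C, Col19a1 had 775 CPM in Sst Crhr2_1 and 765 CPM in Sst Myh8_1, but 4.32 CPM in L4/5 IT_2 and 0.659 CPM in L5 PT_1. Col25a1 had 128 CPM in Sst Calb2 and 104 CPM in Sst Pvalb Calb2, and no read in Sst C1ql3_1, Sst C1ql3_2, Sst Crhr2_2, Sst Htr1a and Sst Myh8_1. Col6a1 had 342 CPM in L5 PT_1 (387 CPM at 25 °C) and 238 CPM in Sst Crhr2_1 (234 CPM at 25 °C).

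Levels themselves differed between the sets. In the mean over 9 Sst t-types, 4 of 12 collagen genes that passed the filter differed at least 2-fold, against 19.1% of all genes. Col9a2 was higher at 34 °C (mean of 10.7 against 2.58 CPM, log2 2.14, higher in 8 of 9 t-types). Col4a2 (19 against 48.5 CPM, log2 -1.45), Col16a1 (0.00564 against 5.92 CPM, -1.31) and Col11a1 (38.2 against 100 CPM, -1.29) were lower, in 8, 6 and 8 of 9 t-types. Col11a1 was at or below 0.0908 CPM at 25 °C in 4 of the 9. Its largest difference was in Sst Htr1a, with no read in 7 cells at 34 °C and 120 CPM at 25 °C, where 33.3% of 6 cells had a read. The mean log2 of Col11a1 was -0.58 without Sst Htr1a and -0.88 without Sst C1ql3_1, and that of Col16a1 was -0.88 without Sst C1ql3_2 or without Sst Pvalb Calb2. These values, computed after seeing the data, are under 2-fold. Col16a1 was read in 1 of these t-types at 34 °C, so that its ratio depends on the 1 CPM added. Col19a1 was lower in 8 of 9 t-types, by less than 2-fold (513 against 824 CPM, log2 -0.62). Its cell median in Sst Calb2 was 636 CPM at 34 °C (14 cells) and 1171 CPM at 25 °C (61 cells). Col25a1 differed less in the mean (28.2 against 45.8 CPM, log2 -0.18).

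**Figure D5:**
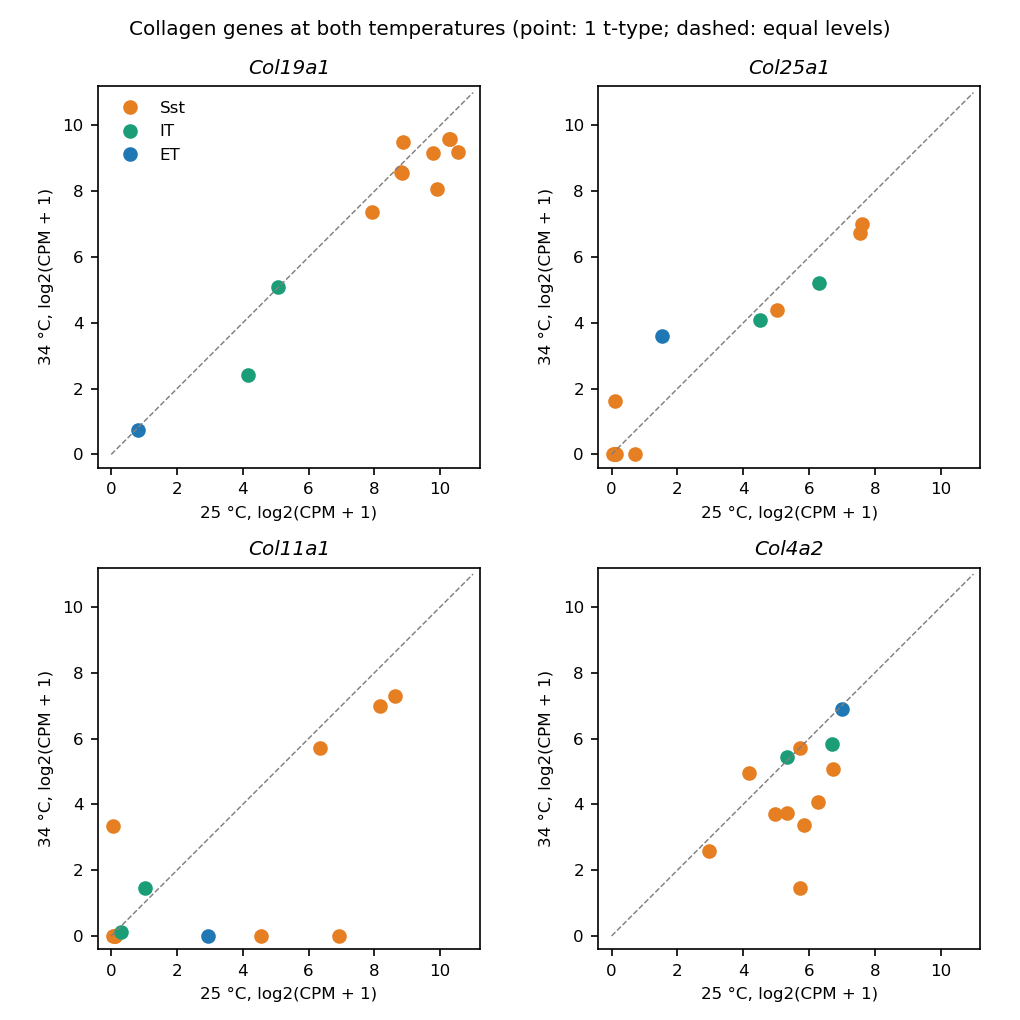
Levels at 34 °C against 25 °C as log2(CPM + 1) for Col19a1, Col25a1, Col11a1 and Col4a2, each point 1 of the 12 t-types with at least 5 cells at both temperatures, with the line of equal levels. The Pearson r is 0.97 for Col19a1 and 0.96 for Col25a1 (Spearman's rho 0.86 and 0.90), and Col19a1 lies below the line in 8 of the 9 Sst t-types.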

How the data were processed

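The authors aligned single-end Smart-seq2 reads to mm10 with STAR 2.5.4b after demultiplexing with bcl2fastq 2.20, and obtained exonic and intronic counts with the zUMIs pipeline and the GENCODE M23 annotation. The deposited values used here are raw exonic counts without molecular identifiers, so that PCR copies count separately and intervals cover counting error only. Of the 25 °C columns, 9 matched no sample and were not used. Spike-ins (4.69% of all counts) were left out of totals. Intronic counts were used at 34 °C alone.

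Counts were summed by the t-type in the labels and given as CPM; single cells were also thinned to 200000 counts. Fold changes are log2 ratios of CPM + 1, compared where the higher group had at least 5 CPM (20 CPM between t-types). Since the labels name no animal, every group was 1 sample and no test was run. Recording days came from the sample names. Doublets were not searched for.

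Genes described in full had at least 20 CPM in a family or 50 CPM in a t-type of at least 5 cells (23 genes). For each, the 3 genes of most similar pattern were determined, and chains of 1 molecule were compared whatever their values. P4hb and Serpinh1 were added after their values were seen. The members and lists were chosen with earlier results of these data known. Exon sequences and start sites came from GENCODE M21 (GRCm38), and the bases of the shared start from a GRCm38.p6 sequence. The computation was checked on simulated counts. The software was matplotlib 3.10.9, pandas 2.3.3, scipy 1.17.1 and numpy 2.4.6 in Python 3.11.15. Alternatives were the mean over cells or days, median-of-ratios scaling, a filter of 1 CPM, a pseudocount of 5 CPM, either recording period, cells with at least 500000 counts and leaving out recording days.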

Additional observations from a re-analysis of the deposited data

Results flagged for a closer look

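In the 92 cells at 25 °C to which the labels give no t-type, 3 collagen genes were above their highest level in any family. Col7a1 stood at 19.8 CPM (highest family Pvalb, 11.3 CPM), with 65.6% of the reads from 1 cell. Col9a3 stood at 46.98 CPM (ET, 4.79 CPM), with 99.5% of the reads from 1 cell, and Col27a1 at 7.53 CPM (IT, 5.22 CPM), with 98% from 1 cell. Among 15 groups of 4 to 10 cells, 1 cell stood far from the others in 4, where chance flags about 1 in 20 groups. That rate is for values that scatter around a mean, which single cells with many zeros do not, so these 4 are a description of cells. Col9a3 in Pvalb Calb1_1 (gap of 1 times the range over 9 cells) and Col20a1 in Lamp5 Pax6 (gap of 1 over 5 cells) were read in 1 cell each. For Col16a1 in L5 IT_3 the highest of 5 cells had a gap of 0.848 times the range of log2(CPM + 1). For Col4a2 in Sncg Npy2r the lowest of 5 cells (31.2 CPM, median 537 CPM) had a gap of 0.712 times the range.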

How the results depend on the processing

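Of the alternatives to the 5 counts of collagen genes that were run, 31 gave a count within 1.5 times that reported and 4 did not. With a filter of 1 CPM, the differences between 1 family and the rest numbered 211 in place of 122 and those of t-types 479 in place of 223. Cells of the earlier years gave 76 differences between 1 family and the rest, in 6 families. A pseudocount of 5 CPM left 2 of the 4 differences between 34 and 25 °C. Col18a1 in NP cells turned to a log2 of -1.60 when the recording day or the cell with most of its reads was left out (4.60 at most over single days left out), and Col5a2 in Sncg cells to -1.09 in the cells of the final year; the cause was not tested, apart from the single cells that carried those reads. Of the values of named genes under the alternatives, 136 stayed within 0.1 of the reported log2, 314 moved by more and 3 changed sign. Of 38 differences of named genes of at least 2-fold, 24 kept to it in each alternative run, and 14 fell under it or under the filter in at least 1. Without the cell with the most reads, chosen after seeing the data, the differences of 1 family numbered 101 and those between inhibitory and excitatory cells 11. The intronic and the exonic plus intronic alternatives were not run, since the 25 °C intronic counts were not used here. No paired test was run, since no result came from a test and the replicate numbers only name cells. Families were compared within shared recording days as counts of days only. Depth limits single cells: a gene without a read in a cell may be present below its depth.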

Other observations

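In the 92 cells without a t-type, the genes that led in typed neurons were low. Col19a1 had 22.5 CPM, 75.1% of it from 1 cell, against 345 CPM over all typed cells, and Col6a1 had 17.5 CPM against 156 CPM. Col25a1 had 0.118 CPM against 54.5 CPM, and Col11a1 0.148 CPM against 64.5 CPM. Col12a1, at 22.2 CPM, was close to its level over typed cells (21.2 CPM), with 61.9% of the reads from 1 cell.

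The 34 °C cells also had intronic counts. Over 12 t-types, the correlation of exonic with intronic levels as log2(CPM + 1) was 0.98 for Col19a1, 0.96 for Col25a1, 0.93 for Col16a1 and 0.65 for Col6a1, and 0.08 for Col11a2.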
